A study of Mus musculus with 4 samples.

Results

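Well-covered intronic start sites are described here, that is, clusters of RNA 5′ ends that lay wholly within an intron of an annotated gene and held at least 100 reads over the 4 libraries of the study. Members were selected on measured values, namely the total reads of a site, together with the class code i (intronic) and a place on a primary chromosome. Sites of the giant muscle genes Ttn and Neb were left out. This gave 1979 sites in 1398 genes, out of 42207 sites in the whole table and 21013 intronic sites of any depth. The same minimum was met by 16 intronic sites of Ttn, 3 of Neb and 5 off the primary chromosomes, which were not counted. The libraries came from gastrocnemius muscle of adult male mice: 2 AMPKα2 knockout mice (AMPKα2-/-, C57BL/6, called KO) and 2 wild-type controls (WT), 1 library per animal. The knockout takes away AMPKα2, a catalytic subunit of the energy-sensing kinase AMPK that Prkaa2 encodes, and the comparison asked which start sites differed in level or use without it. In whole transcriptome start site sequencing (WTSS-seq), ribosomal RNA is first removed, and the remaining RNA is copied with template switching at its 5′ end and read from there.

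As background, most genes are read from a promoter at the start of their first exon, yet many genes, large muscle genes such as Dmd among them, also carry promoters inside introns that give shorter or different first exons. Introns are normally spliced out and degraded quickly, and they hold enhancers, small RNA genes and repeated elements that can be transcribed on their own. A 5′ end inside an intron may therefore mark a true start, the end of a processed RNA or a fragment of a pre-mRNA, and a read count does not tell these apart.

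Few of the sites lay at an annotated start. RefSeq promoter windows (build GRCm38.p6, from 250 bases before to 50 after the annotated start, 32851 windows) were at hand for the host genes of 1552 sites, and 2 of them (0.129%) had their peak in the window of their own gene on its strand. By contrast, of the sites with the same read minimum that overlapped exons in another way (class code o), 49 of 70 (70%) fell in such a window, and of those contained in a transcript (c), 70 of 1112 (6.29%). The class code itself takes away sites on exons, so these shares describe the classes. Both windows are shown because they hold the only intronic sites of this kind, with the bases of the site in capitals.

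Plekha4 (chr7:45529349-45529648, plus strand, GRCm38.p6): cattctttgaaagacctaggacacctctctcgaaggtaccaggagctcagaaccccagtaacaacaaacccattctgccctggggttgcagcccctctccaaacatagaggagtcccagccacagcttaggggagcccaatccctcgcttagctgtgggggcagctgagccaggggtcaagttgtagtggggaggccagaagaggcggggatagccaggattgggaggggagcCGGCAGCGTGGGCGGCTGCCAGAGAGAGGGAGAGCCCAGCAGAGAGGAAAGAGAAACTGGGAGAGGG
Wdr45 (chrX:7722677-7722976, plus strand, GRCm38.p6): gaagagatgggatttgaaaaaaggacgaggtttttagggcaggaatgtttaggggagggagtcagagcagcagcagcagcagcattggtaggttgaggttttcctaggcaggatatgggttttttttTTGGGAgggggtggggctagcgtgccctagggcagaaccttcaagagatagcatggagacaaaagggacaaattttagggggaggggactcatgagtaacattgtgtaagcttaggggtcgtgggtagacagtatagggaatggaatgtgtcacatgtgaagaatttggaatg

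The Plekha4 site was 79 bp wide, of which 67 bases fell inside the window, and its peak lay 37 bp after the annotated start. Plekha4 encodes a phosphoinositide-binding protein. It had 48 and 53 reads in KO against 55 and 34 in WT, so the groups overlapped. The Wdr45 site was 6 bp wide and peaked 122 bp before the annotated start. Wdr45, which encodes an autophagy protein that binds phosphoinositides, had 178 and 298 reads there in KO and 104 and 82 in WT, with a log2 ratio of 0.66 ± 0.70 (SE, adjusted p 1.00 by DESeq2). WT replicate 1 lay above KO replicate 1 there once normalized. GC content was 60% in the Plekha4 window and 48% in the Wdr45 window, against a median of 52.7% over all windows, and the dinucleotide CG occurred 6 and 3 times, against a median of 7. The letters TATAAA were in neither window on the strand of the gene, and 8.32% of all windows held them. A further 6 sites had an annotated start within 300 bp outside their own window, among them those in Zmiz1, Tecr and Limch1, and 0 lay within 300 bp of any of 1005 miRNA hairpins.

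Library totals ran from 1300069 to 2900279 reads, with both KO libraries deeper than both WT libraries, and 817751 to 1833434 reads per library lay on the primary nuclear chromosomes outside ribosomal RNA genes (nuclear reads below). The 9 markers of skeletal muscle were all present and took 2.68% to 4.17% of nuclear reads in each library. Prkaa2, the targeted gene, held 1 of the sites, 8 bp wide, at 7.24% of the length of the gene from its start, with 38 and 56 reads in KO against 26 and 47 in WT. Its log2 ratio was -0.30 ± 0.90 (SE, adjusted p 1.00 by DESeq2), and both groups had reads there. The study describes the deletion as a stretch of the catalytic domain in the protein, which was not placed on the genome here, so the site was not used to check the labels. The intronic sites together took 24.9% and 19.8% of the nuclear reads in KO and 23.6% and 18.3% in WT. The 95% Wilson interval of each share was within 0.0920 percentage points, which covers counting error only, as reads copied by PCR were counted separately. Their means were 22.4% ± 3.64 (SD, n = 2) for KO and 20.9% ± 3.74 (SD, n = 2) for WT. With 2 libraries against 2 no exact permutation test can go below p 0.333, so group totals were not tested.

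The reads were concentrated in few sites. The 10 most read sites held 28.1% of the 1103375 reads, while 1019 sites (51.5%) had fewer than 200 reads and the median was 193. A site of 222 bp in Cdk8, which encodes a kinase of the Mediator complex, alone had 55475 and 34406 reads in KO against 40722 and 29211 in WT. That was 12.1% and 12.0% of all reads at intronic sites of this depth in KO, compared with 21.1% and 17.5% in WT, so the share was higher in both WT libraries. It also held at least 99.7% of all reads of Cdk8 in each library. The treatment of multiply mapped reads was not described, so whether these reads came from Cdk8 is uncertain. The log2 fold change of the site was -0.43 (SE 0.55, DESeq2 adjusted p 1.00), and after normalization the WT libraries lay on either side of KO replicate 1.

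Next in order were a site of 461 bp in the lncRNA gene Gm36876, with 26304 reads, and a site of 30 bp in Atp2a1, which encodes the calcium pump of fast muscle fibres. Atp2a1 had 12043 and 3577 reads in KO against 2290 and 3010 in WT, and the site made up 74.0% of the reads of the gene in KO replicate 1 and 35.5% to 40.3% in the other 3 libraries. The site in Pde4dip, whose product myomegalin anchors a phosphodiesterase, had 14001 and 3401 reads in KO against 1271 and 1285 in WT. Both KO libraries were above both WT libraries, and it was called up-regulated with a log2 ratio of 1.92 ± 0.64 (SE, adjusted p 0.0902 by DESeq2), the smallest change among the called sites. The call was lost under every alternative run, and the log2 ratio was 0.90 without KO replicate 1, which held 59.9% of the normalized reads of the Pde4dip site. The Lrrfip2 site, in a gene for a protein that binds an actin-remodelling partner, had 7791 and 4785 reads in KO but 227 and 2264 in WT, so that WT replicate 1 stood apart. Its log2 ratio was 1.66 (SE 0.79, DESeq2 adjusted p 0.426), with 0.82 and no call without WT replicate 1 and 3.85 and a call without WT replicate 2. The Hnrnph1 site, in a gene for a splicing factor, had 5201 and 3370 reads in KO against 2357 and 1167 in WT, and held 75.7% to 95.9% of the reads of the gene. The sites in Gm30821, D130009I18Rik and LOC108168339 were the only site of their gene, and that in Rab10os held 98.1% to 99.3% of its reads. Of these 10 sites, the one in Pde4dip was called.

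**Figure D1:**
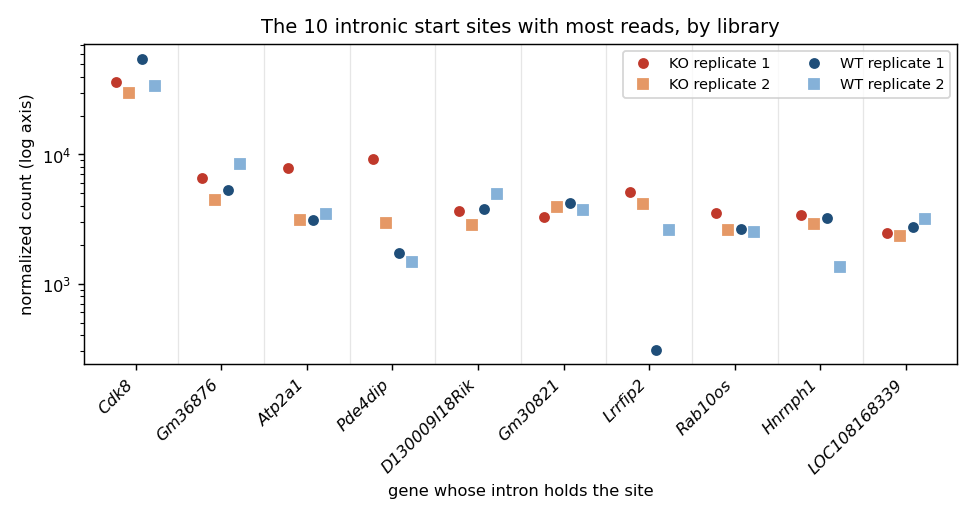
Normalized counts (log axis) of the 10 most read intronic start sites, named by host gene, with 1 point per library (KO in red shades, WT in blue shades). Cdk8 lies above all others in every library, Pde4dip is higher in both KO libraries, and WT replicate 1 is low for Lrrfip2.

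The sites were narrow and stood alone. The median width was 12 bp (quartiles 5 and 21 bp, range 1 to 461 bp), and 540 sites (27.3%) were 5 bp wide or less. With the same read minimum, the median width was 56 bp for sites contained in a transcript, 67 bp for class code o and 112 bp for sites spanning an exon and an intron. Sites antisense to an exon, just outside a gene and between genes were narrow too, with medians of 11, 15 and 18 bp. The next site on the same strand was more than 1000 bp away for 1502 sites (75.9%) and within 100 bp for 126. Over 100 bp were 25 sites, and the widest after Gm36876 were those in Jarid2, with 401 bp, and D130009I18Rik, with 260 bp. All of these 3 were antisense to the gene they were assigned to. Jarid2 encodes a subunit associated with Polycomb repressive complex 2, and its site had 414 and 446 reads in KO against 187 and 323 in WT.

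The strand of the host gene was known for 1892 sites, of which 1850 (97.8%) lay on that strand and 42 on the other. Among the antisense sites, the one in Tmtc2 had 1317 and 2582 reads in KO against 1709 and 1218 in WT and took 89.8% to 97.4% of the reads assigned to the gene. The sole antisense site that was called lay in Rora, which encodes a nuclear receptor, with 147 and 161 reads in KO against 13 and 2 in WT. Both KO libraries were above both WT libraries, and the log2 ratio was 3.58 (SE 0.95, DESeq2 adjusted p 0.0143). Host genes were protein coding for 1867 sites and lncRNA genes for 42, while 68 were not matched to a biotype.

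Along the gene, the sites thinned out from start to end. Of 1837 sites that could be placed in their gene, 501 (27.3%) lay within 20% of its length from the start and 229 (12.5%) in the last part of the same size, with 417, 354 and 336 between. The median distance from the annotated start was 32415 bp, and the median length of the host genes, counted once per site, was 101350 bp. Another annotated gene overlapped 59 sites (2.98%), 20 of them on the strand of the site. Those with most reads on the same strand were the sites in Ube2k, which overlaps Gm40309, and Rora, which overlaps Gm31262.

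**Figure D2:**
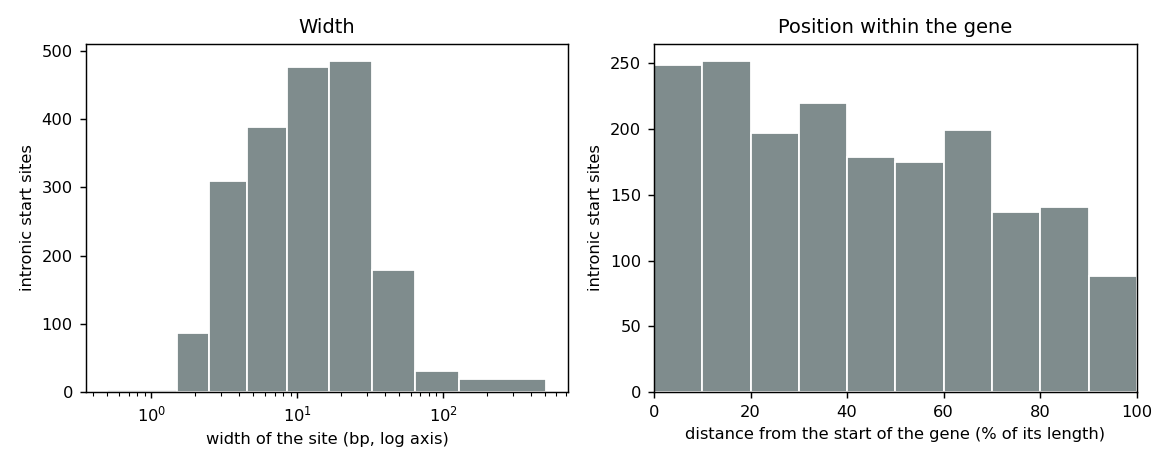
Numbers of intronic start sites by width in bp (left, log axis) and by distance from the start of the host gene in percent of its length (right, 1837 sites). The median width is 12 bp, and fewer sites lie near the end of the gene than near its start.

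A single intronic site often carried much of what was read from its gene. The median share of the reads of the gene was 40.7% and 39.8% in KO, compared with 38.1% and 32.5% in WT. This was not particular to intronic sites. With the same minimum, the library medians were 43.4% to 44.9% for sites contained in a transcript. Sites of class code o had 70% to 73.8%, sites just outside a gene 66.1% to 75.6%, and sites antisense to an exon 75.2% to 88.1%. Only sites spanning an exon and an intron had lower medians, of 22.3% to 28.6%. In every library, 521 sites (26.3%) held over 50% of the reads of their gene and 184 held under 10%, while 103 were the one site of their gene. The minimum on reads raises this share, as it keeps the larger sites of a gene. Reads per site count 5′ ends and not whole transcripts, so a share is a share of ends.

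The levels were then compared between KO and WT by the Wald test of DESeq2 on all 42207 sites, with adjusted p-values under 0.1 called. All 1979 intronic sites passed the independent filter on mean counts. Of them, 119 (6.01%) were up-regulated in KO and 21 (1.06%) were down-regulated, against 2.33% and 0.882% of the 11112 sites tested. These tested sites include ones with fewer than 100 reads. Of the sites contained in a transcript with the same minimum, 3.70% were up-regulated and 1.00% down-regulated. Intergenic sites and sites antisense to an exon had 7.18% and 6.45% up-regulated. The quasi-likelihood test of edgeR called 23 and 11 of the 1943 intronic sites it tested, all of them among the calls of DESeq2. Of all 11242 sites it tested, it called 48 (0.427%) and 32 (0.285%). The counts of called sites changed with the library left out, as given further on. Each such run left a group without a replicate, so its calls depended on that as well as on the library. Of the 119 up-regulated sites, 118 kept their sign without KO replicate 1 and all 119 in the other such runs. The 21 down-regulated sites kept theirs in every such run. The sites were called on these same libraries, so the kept signs are no separate evidence. The minimum of 100 reads was set on a sum to which the deeper KO libraries give more: 1392 sites reached it on KO reads alone, 571 on WT reads alone and 523 in each group on its own.

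The median log2 fold change of the sites was 0.47, against 0.10 over all tested sites, and 1346 (68.0%) were above 0. Both KO libraries were above both WT libraries in 687 sites (34.7%), against 23.0% of all tested sites, and below them in 181 (9.15%), against 17.4%. Among the other sites with the same minimum, those contained in a transcript had a median of -0.04 with 59 up-regulated and 16 down-regulated of 1595, and those spanning an exon and an intron had a median of -0.23 with 0 and 1 of 344 called by DESeq2. Intergenic sites had a median of 0.27 with 13 and 3 of 181, and sites antisense to an exon had 0.57 with 6 and 0 of 93 called by DESeq2. The median normalized count of the intronic sites was 56.4 and 44.0 in KO against 42.1 and 28.9 in WT, so that KO replicate 2 and WT replicate 1 lay close to each other. Intronic sites of all depths took 36.0% and 28.2% of nuclear reads in KO and 32.5% and 25.5% in WT, so replicate 1 of each group was the richer in them. In bulk tissue, fewer cells of a type and less RNA per cell cannot be told apart.

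**Figure D3:**
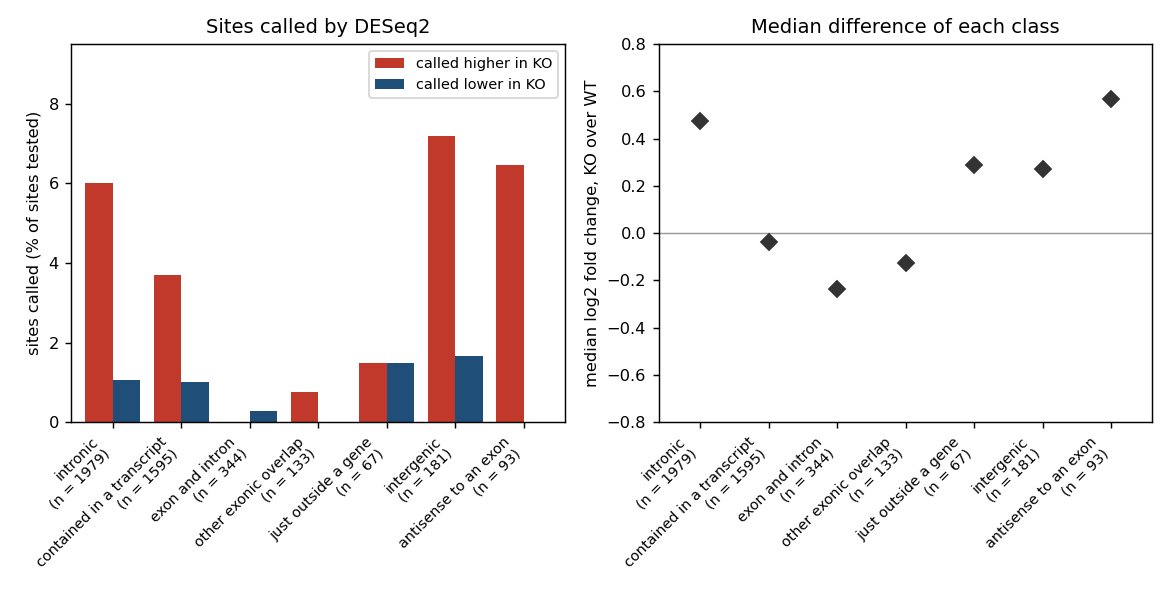
Left, percent of tested sites with at least 100 reads called up-regulated (red) or down-regulated (blue) by DESeq2, by class of site; right, median log2 fold change of KO over WT of the same classes. Intronic sites show 6.01% and 1.06% called and a median of 0.47, while sites contained in a transcript have a median of -0.04.

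Among the 119 up-regulated sites, the median log2 ratio was 4.22 and the median total was 246 reads. They lay in 106 genes, had a median width of 11 bp and sat at a median of 41.0% of the gene, close to the 12 bp and 39.9% of the sites not called. In 55 of them both WT libraries had 3 reads or fewer, and in 16 both had 0. Over 70% of the normalized reads came from 1 library in 43 of the 119 (36.1%), against 4.79% of the sites not called, and 114 of the 119 had both KO libraries above both WT libraries.

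A site of 10 bp in Pafah1b1, which encodes a regulator of the motor protein dynein, had 1599 and 746 reads in KO against 3 and 1 in WT. It went from 1.90% and 0.452% of the reads of the gene in WT to 76.0% and 66.3% in KO. The ratio of reads, summed over each group and scaled by summed size factors, was 350.2 (95% counting interval 137 to 1286, DESeq2 adjusted p 9.62e-15). This interval leaves out the spread between replicates. The whole gene had 2104 and 1125 reads in KO against 158 and 221 in WT, and at its next most read intronic site 130 and 181 were counted in KO and 35 and 30 in WT. A site of 45 bp in Nfia, a transcription factor of the nuclear factor I family, had 918 and 428 reads in KO against 15 and 10 in WT. Its share of the gene was 20.3% and 25.5% in KO against 1.04% and 0.533% in WT. The Gm41750 site held 98.2% and 98.4% of the reads of its lncRNA gene in KO, where it had 391 and 433 reads, and had 0 in WT, where the whole gene had 1 and 12 reads. These 3 sites remained called whichever library was left out.

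Xpo5, which encodes the exporter of pre-miRNAs, had 325 and 145 reads in KO against 3 and 0 in WT at a site of 20 bp, 7.23% into the gene. The ratio of summed reads, scaled as for Pafah1b1, was 93.6 (95% counting interval 31.8 to 455, DESeq2 adjusted p 9.08e-06), and the whole gene had 9 reads in each WT library. The site in Dlc1, a GTPase-activating protein, had 206 and 124 reads in KO and 0 in both WT libraries, and was at least 32.1-fold higher in KO (adjusted p 2.44e-05 by DESeq2). The site in Epc2, which encodes an Enhancer of polycomb homologue, had 210 and 117 reads in KO but 0 in WT, and was at least 31.7-fold higher (adjusted p 2.65e-05 by DESeq2). For both genes the other sites were read in WT, with 109 and 156 reads of Dlc1 and 68 and 90 reads of Epc2, so that a count of 0 allowed a share of up to 2.75% and 1.92% of Dlc1 and up to 4.41% and 3.33% of Epc2. Floors of 3 counts per library were used for these bounds and cover counting error only.

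The site in Clasp1, a protein of microtubule ends, had 2390 and 474 reads in KO against 76 and 19 in WT. KO replicate 1 held 74.6% of its normalized reads, and its adjusted p was 0.541 without that library, against 0.000225 with it (DESeq2). The Dst site, in a gene for a cytoskeletal linker, had 177 and 46 reads in KO but 0 in WT. By the mean of KO it was at least 20.7-fold higher (adjusted p 0.000361 by DESeq2), but the normalized counts were 116 and 39.7. Without KO replicate 1 its adjusted p was 0.219. Among the up-regulated sites named here by their adjusted p, these 2 were the ones that lost the call when a library was left out.

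The 21 down-regulated sites lay in 21 genes, with a median log2 fold change of -4.30 and a median total of 188 reads. In 4 of them both KO libraries had 0 reads. The Ms4a4b site, in a gene for a membrane protein of T cells, was the only site of its gene, with 120 and 71 reads in KO against 839 and 756 in WT. Zfp532, a zinc-finger gene, had 23 and 8 reads in KO against 263 and 198 in WT, and the site held 16.3% and 15.7% of the reads of the gene in KO against 95.3% and 90.4% in WT. Wasf2 encodes an activator of actin nucleation, and its site of 5 bp had 5 and 3 reads in KO against 210 and 68 in WT, or 5.32% and 6.38% of the gene against 82.7% and 51.5%. In the share test described further on, neither Zfp532 (adjusted p 1.00 by diffSpliceDGE) nor Wasf2 (adjusted p 0.493 by diffSpliceDGE) was called. The site in Cpne3, a calcium-dependent phospholipid-binding protein, had 7 and 15 reads in KO against 185 and 153 in WT, with a log2 ratio of -4.63 ± 0.78 (SE, adjusted p 3.06e-06 by DESeq2). These sites were chosen among those in which both KO libraries were below both WT libraries.

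Rcan2, a regulator of the phosphatase calcineurin, had 0 reads at its site in KO and 49 and 145 in WT, and was at least 51.3-fold lower in KO (adjusted p 6.23e-06 by DESeq2). Rb1cc1, which encodes a scaffold of the complex that starts autophagy, had 0 reads in KO and 74 and 38 in WT, at least 31.7-fold lower in KO (adjusted p 0.000102 by DESeq2). St6galnac3, a sialyltransferase gene, had 0 reads in KO and 99 and 21 in WT, at least 34.8-fold lower (adjusted p 0.000114 by DESeq2). WT replicate 1 held 84.7% of the normalized reads of the St6galnac3 site. Without KO replicate 2 the adjusted p was 0.126 for Rb1cc1 and 0.130 for St6galnac3, and without WT replicate 1 DESeq2 gave neither an adjusted p.

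Besides Ms4a4b, down-regulated sites lay in Skap1, on the same list of lymphocyte genes, and in Bank1. Skap1, an adaptor of T cell signalling, had 9 and 2 reads in KO against 112 and 65 in WT, with a log2 ratio of -4.86 ± 0.96 (SE, adjusted p 0.000133 by DESeq2). Bank1, a scaffold protein of B cells, had 15 and 18 reads in KO against 257 and 83 in WT, with a log2 ratio of -4.14 ± 0.82 (SE, adjusted p 0.000139 by DESeq2). Without KO replicate 2, the adjusted p was 0.346 for Skap1 and 0.137 for Bank1, and without WT replicate 1 it was 0.101 and 0.206. The Ptprc site, in the gene of the leukocyte surface phosphatase CD45, had 10 and 20 reads in KO against 70 and 22 in WT and was not called (adjusted p 0.347 by DESeq2). Over all sites of the 13 listed lymphocyte genes, the level was 113.5 and 89.7 ppm of nuclear reads in KO and 1382 and 997 ppm in WT. Without Ms4a4b it was 48.0 and 40.7 ppm against 356 and 169 ppm, and Skap1 gave 138 of those 291 reads in WT replicate 1 and 78 of 154 in WT replicate 2. The list was chosen with earlier results of these data known. Its level rests largely on these called genes, so it is no separate evidence beside their calls. Of the 13 genes, 8 had no read in any library, Cd3g, Cd4 and Cd8a among them, while Cd3e had 4 and 1 reads in KO against 13 and 33 in WT. The part of lymphocyte number in the lower level of these sites was not tested.

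**Figure D4:**
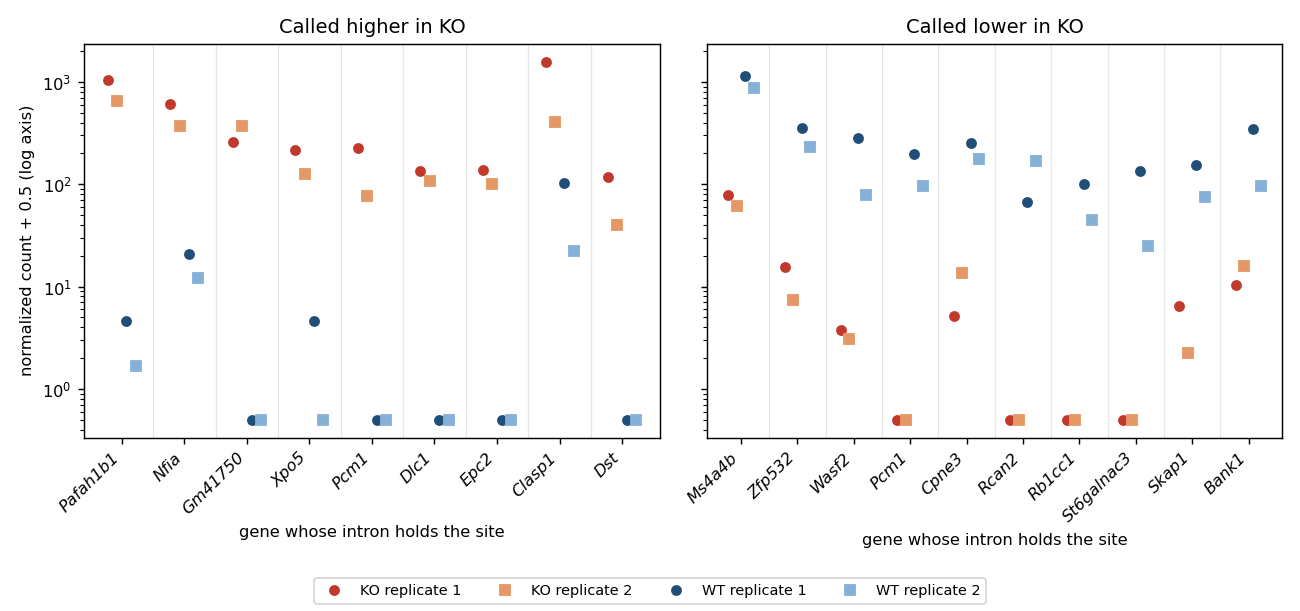
Normalized counts plus 0.5 (log axis) at 9 up-regulated (left) and 10 down-regulated (right) intronic sites named by rank, with 1 point per library. The sites were chosen among those in which both libraries of the higher group lie above both of the other. Points at 0.5 stand for 0 reads.

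The use of a site within its gene was tested by diffSpliceDGE of edgeR, which compares the fold change of a site with that of its gene, over 8054 sites. Of the 1493 intronic sites in this test, 14 rose in share in KO and 6 fell. Of all 8054 sites tested, these included, 34 rose (0.422%) and 24 fell (0.298%). All 20 intronic sites were also called in level in the same direction. There were 13 and 1 such sites without KO replicate 1, 16 and 2 without KO replicate 2, 1 and 2 without WT replicate 1 and 3 and 6 without WT replicate 2.

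Pcm1, which encodes a protein of centriolar satellites, had a site in each direction. The site at 41282910 to 41282925 of chromosome 8 had 46.7% and 21.3% of the reads of the gene in KO and 0 of 209 and 0 of 172 reads in WT, which allowed up to 1.44% and 1.74%. The site at 41321401 to 41321407 had 0 of 734 and 0 of 418 reads in KO, allowing up to 0.409% and 0.718%, and 68.9% and 47.7% in WT (95% Wilson intervals 62.3% to 74.8% and 40.3% to 55.1%). The adjusted p of the share test of diffSpliceDGE was 0.00189 for the former and 4.09e-05 for the latter. A further Pcm1 site, up-regulated in level alone, had 163 and 115 reads in KO against 11 and 18 in WT.

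Cdk14, a cyclin-dependent kinase gene, had 107 and 51 reads at a site of 25 bp in KO and 0 in WT, or 40.2% and 34.5% of the gene against 0%, while its other intronic site of this set had 106 and 45 reads in KO against 79 and 75 in WT. Dst rose from 0% to 9.99% and 2.76%, while its most read intronic site kept 15.2% to 22.3% of the gene in all 4 libraries. Further sites that rose in share included those in Pafah1b1, Dlc1, Epc2, Nfia, Ivns1abp, Park2, Rfwd2, Igf1r and Atxn1, with a second site in Dst.

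Among those that fell in share, Rcan2 had 0% of the reads of the gene in KO and 43.4% and 60.7% in WT, and Rb1cc1 had 0% in KO and 63.2% and 42.2% in WT. A Dmd site held 0.0496% and 0.460% of the reads of the gene in KO, compared with 5.38% and 3.72% in WT. In Zbtb20, a transcriptional repressor, a site of 47 bp had 7 and 4 reads in KO against 68 and 58 in WT, or 0.0863% and 0.121% of the gene against 3.38% and 2.34%. Pgm2, a phosphoglucomutase gene, had 2 and 5 reads in KO against 62 and 33 in WT at a site of 3 bp, or 0.447% and 1.52% of the gene against 24.4% and 15.9%. The KO and WT libraries did not overlap in any of these sites.

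**Figure D5:**
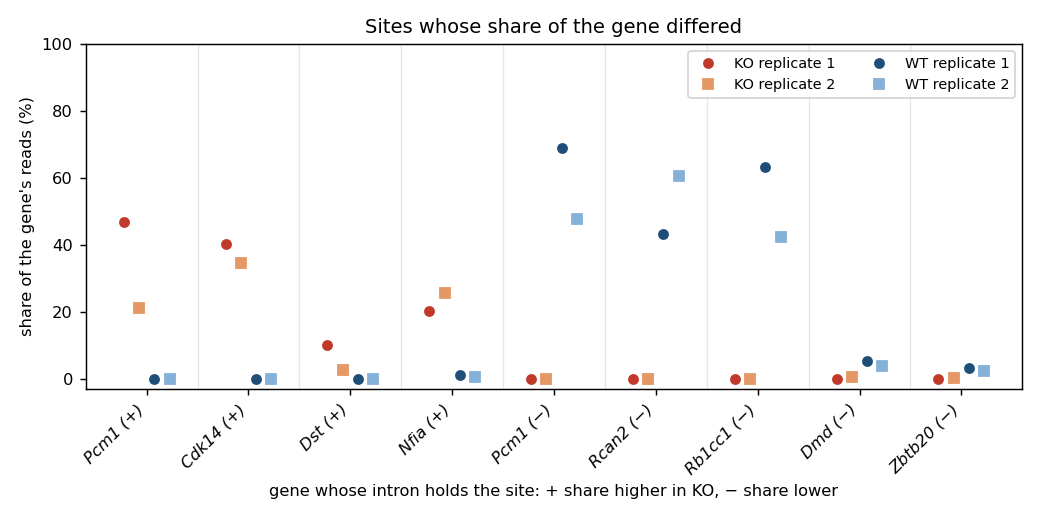
Share of the reads of the gene (%) held by 9 intronic sites named by the share test, with 1 point per library; plus marks sites that rose in share in KO and minus those that fell. The Pcm1 sites lie at 46.7% and 21.3% in KO against 0% in WT, and at 0% in KO against 68.9% and 47.7% in WT.

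Most host genes had 1 site of this set (1043 of 1398), 236 had 2 and 119 had 3 or more. Dmd, which encodes dystrophin, the link between the cytoskeleton and the muscle membrane, had the most, with 15 of its 213 sites, spread over 5.86% to 87.3% of the gene and 2 to 24 bp wide. Together they took 50.2% and 55.0% of the reads of Dmd in KO and 48.0% and 46.8% in WT. Their median log2 ratio was 1.46, and 2 were up-regulated and 1 was down-regulated. The site at 84099676 to 84099679 of chromosome X had 182 and 260 reads in KO against 8 and 24 in WT, with a log2 ratio of 3.15 ± 0.80 (SE, adjusted p 0.00923 by DESeq2). The site at 83644031 to 83644032 had 208 and 5 reads in KO against 0 and 5 in WT, so KO replicate 1 alone was high (adjusted p 0.0741 by DESeq2). The site at 84075972 to 84075976 had 2 and 13 reads in KO against 52 and 53 in WT, a log2 ratio of -3.43 ± 1.08 (SE, adjusted p 0.0649 by DESeq2). It lay at 52.8% of the gene, with its nearest other site on the same strand 6634 bp away. The up-regulated site at 84099676 lay farther off, at 53.8%.

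Zbtb20 had 12 sites, of which 1 was down-regulated, with log2 fold changes from -4.30 to 3.28. Pdlim5, which encodes a PDZ and LIM domain protein of the Z-disc, had 9, which together took 78.6% and 90.8% of the reads of the gene in KO and 78.7% and 76.1% in WT. The Pdlim5 site called up-regulated had 168 and 158 reads in KO against 11 and 13 in WT, with a log2 ratio of 3.04 ± 0.79 (SE, adjusted p 0.0121 by DESeq2). Trdn, which encodes triadin of the calcium release complex, had 8 sites, and none passed the test of DESeq2. The most read, at 86.7% of the gene, had 4544 and 3182 reads in KO against 831 and 1253 in WT (log2 ratio 1.15 ± 0.54 SE, adjusted p 0.406 by DESeq2). Pde4d, a cAMP phosphodiesterase gene, had 8 sites between 61.9% and 98.3% of the gene, and none passed the test of DESeq2. The Pde4d site at 97.0% had 276 and 0 reads in KO against 7 and 0 in WT, so it was seen in replicate 1 of both groups only.

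Gene lists that fit muscle and the knockout were read out next, with counts of sites called in level by DESeq2. They stand beside 6.01% up-regulated and 1.06% down-regulated of all intronic sites. Of all sites tested, shallower ones included, 2.33% and 0.882% were called. The lists were chosen with earlier results of these data known, so a called site on a list is no separate evidence. Of 58 genes of the sarcomere and Z-disc, 17 held 32 sites, and 4 were up-regulated and 0 down-regulated, with a median log2 fold change of 1.31. Besides Pdlim5, they included Myom2, an M-band protein, with 572 and 18 reads in KO against 20 and 4 in WT, and Pdlim3, a Z-disc LIM protein, with 74 and 127 in KO against 8 and 6 in WT. The Myom2 site had 88.8% of its normalized reads in KO replicate 1, and KO replicate 2 lay between the WT libraries. The most read site of this list was in Tnni2, fast troponin I, with 1128 and 2760 reads in KO against 1198 and 2795 in WT, so the replicates of each group lay apart and the groups overlapped. For excitation-contraction coupling and calcium, 14 genes held 28 sites, with 2 up-regulated, both in the calcium channel subunit gene Cacna2d1, and a median of 1.05. One had 23 and 426 reads in KO against 8 and 8 in WT, the other 173 and 6 in KO against 3 and 0 in WT, so each was high in a different KO library. The sites in Camk2d, a calcium-dependent kinase, and Srl, sarcalumenin, had log2 fold changes of 0.24 (SE 0.60) and 0.68 (SE 0.60) and were not called.

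The membrane skeleton, costamere and linker list had 50 sites in 19 genes, 8 up-regulated and 2 down-regulated, with a median of 0.90. The called sites lay in Dmd, Dst, Ank3, Dysf and Sgcd. Dysf, which encodes the membrane repair protein dysferlin, had 187 and 165 reads in KO against 21 and 10 in WT, with a log2 ratio of 2.74 ± 0.80 (SE, adjusted p 0.0367 by DESeq2). Sgcd, a subunit of the sarcoglycan complex, was down-regulated with 7 and 9 reads in KO against 64 and 23 in WT. The most read Ank3 site, in a gene for a membrane scaffold, had 477 and 992 reads in KO against 126 and 81 in WT (log2 ratio 2.14 ± 0.68 SE, adjusted p 0.0717 by DESeq2). In Itgb1, the β1 integrin gene, 427 and 238 reads in KO against 325 and 188 in WT overlapped.

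Transcription factors and coregulators held 65 sites in 31 genes, 7 up-regulated and 2 down-regulated, with a median of 0.91. Besides Nfia, up-regulated sites lay in Nfib, Klf12, Tbx15, Mef2c and 2 in Rora, and the down-regulated ones in Zfp532 and Zbtb20. In Mef2c, a factor of muscle differentiation, the site called up-regulated had 148 and 183 reads in KO against 17 and 18 in WT (log2 ratio 2.54 ± 0.78 SE, adjusted p 0.0519 by DESeq2). Its most read site, with 864 and 1340 reads in KO against 787 and 423 in WT, was not called (log2 fold change 0.15, SE 0.64). Splicing and RNA-binding factors held 51 sites in 23 genes, 5 up-regulated and 0 down-regulated, with a median of 0.91. The splicing regulator Ptbp2 had 635 and 606 reads in KO against 116 and 42 in WT, with a log2 ratio of 2.19 ± 0.69 (SE, adjusted p 0.0652 by DESeq2). Both Rbm20 sites, in a regulator of muscle splicing, came largely from KO replicate 1, with 484 and 294 reads there against 34 and 11 in KO replicate 2.

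The glycogen, glucose and fat metabolism list had 15 sites in 10 genes, 0 up-regulated and 1 down-regulated, that in Pgm2, and a median of 0.81. Tbc1d1 and Tbc1d4, regulators of glucose transporter traffic and substrates of AMPK, had 688 and 545, and 306 and 92 reads in KO, and 250 and 391, and 49 and 70 in WT, with log2 fold changes of 0.22 (SE 0.57) and 0.93 (SE 0.74). AMPK and its regulators had 7 sites in 6 genes and 0 were called by DESeq2, with a median of -0.24. These were Prkaa2, Prkab2, Rptor, Ppargc1a, Sesn1 and 2 sites in Fnip1. At the Ppargc1a site, in the gene of the coactivator of mitochondrial biogenesis, 104 and 44 reads in KO compared with 14 and 23 in WT (log2 ratio 1.22 ± 0.92 SE, adjusted p 0.901 by DESeq2). Ubiquitin and autophagy genes had 42 sites in 18 genes with a median of 0.40. The sole up-regulated one lay in the ubiquitin ligase gene Herc1, with 175 and 223 reads in KO against 20 and 24 in WT, while the most read Herc1 site had 1462 and 1132 in KO against 715 and 493 in WT and was not called. The long noncoding RNA list had 3 sites with 1 called, Gm41750. Among marker lists of other cell types, endothelial genes had 2 sites, fibroblast genes 2, macrophage genes 1, and adipocyte, blood and Schwann cell genes 0, and none of these passed the test of DESeq2. Summed over all sites of the listed genes, fibroblast genes had 3461 and 3197 ppm of nuclear reads in KO, compared with 5130 and 5163 ppm in WT. Macrophage genes had 277 and 259 ppm, compared with 457 and 379 ppm, so both sums were lower in KO, as the lymphocyte sum was. Genes within these lists did not move alike. Per nuclear read, the macrophage genes Adgre1, Cd163, Lyz2 and Itgam were lower in both KO libraries. Csf1r, Mrc1 and F13a1 overlapped between the groups. Of the fibroblast genes, Sparc, Col3a1, Dcn, Fbn1, Pdgfra, Col6a1, Col6a2 and Col6a3 were lower in both KO libraries. Col1a1, Col1a2, Fn1, Lum and Mgp overlapped. Adipocyte, endothelial, blood and Schwann cell genes overlapped between the groups or differed in the other direction. These medians stand beside 0.47 over all intronic sites, and no list was tested as a whole.

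Values near the read minimum were as follows. The sites just inside it, with 100 reads each, were in Ankrd13c with 55 and 20 reads in KO against 10 and 15 in WT, in Atp2a2 with 50, 14, 7 and 29 in the same order, and in Cep19 with 21, 34, 15 and 30. Just outside it, with 99 reads, were intronic sites of Bgn, Ccdc141 and Cdk19. The largest gaps between replicates were in Pde4d, in Nck2, with 0 and 1 reads in KO against 112 and 0 in WT, and in Zfp827, with 222 and 0 in KO and 0 in both WT libraries. None of these 3 was called by DESeq2, although each was seen almost wholly in 1 animal.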

How the data were processed

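WTSS-seq libraries of 2 KO and 2 WT mice were used. The authors deposited 1 table of raw read counts per clustered start site with Cuffcompare class codes, and its line of column totals was left out. The labels name GRCm38.p5, and the mapping and clustering settings were described for sister libraries of 3′ ends and not for these. Multiply mapped reads were not described, so counts at sites in gene families (such as Ms4a4b and Hnrnph1) or repeats are uncertain.

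Each site was tested for its level by DESeq2 1.42.0 in R 4.3.3 (Wald test, group as sole term, median-of-ratios size factors, independent filtering at a mean count of 8.76, Benjamini-Hochberg adjusted p under 0.1). As an alternative, edgeR 4.0.16 was run (quasi-likelihood test, TMM scaling, sites kept by filterByExpr), and its diffSpliceDGE tested shares within a gene. The scripts were tested on simulated data. The log2 ratio is the fitted log2 fold change of KO over WT. Normalized counts are counts over size factors. Gene strands came from exonic sites of the gene or the RefSeq table (GRCm38.p6), which held 1348 of the 1398 host genes, 1092 of them with a promoter window.

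The members and gene lists were chosen with earlier results of these data known. Named sites were the 10 with most reads, the 10 per direction with the smallest adjusted p and no overlap of groups, the 5 per direction by share, the 5 genes with most sites, up to 4 sites per gene list, up to 10 that overlap another gene on its strand or lie near its start, 3 at the minimum on either side, the 3 widest and the 3 with the largest replicate gap. Other sites, such as the antisense sites, sites on pseudogenes, other called sites of the lists and the Prkaa2 site, were named after their values were seen. Some named items are not reported here. Python 3.11.15, numpy 2.4.6, pandas 2.3.3 and scipy 1.17.1 were used.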

Additional observations from a re-analysis of the deposited data

How the results depend on the processing

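Counts of called sites moved with the tool. DESeq2 called 119 intronic sites up-regulated and 21 down-regulated, and edgeR 23 and 11 (277 and 48 at an unadjusted p under 0.05), and DESeq2 with independent filtering off called 57 up-regulated sites, since more p-values were adjusted together. With the threshold at 0.05 there were 71 up-regulated sites, and with a minimum of 200 reads, which leaves fewer sites, 75 and 9. Leaving out each replicate in turn gave 16 to 132 up-regulated and 6 to 25 down-regulated sites, and 1 to 16 sites that rose and 1 to 6 that fell in share. The share of calls that were up-regulated was 85% with DESeq2 and 67.6% with edgeR. The groups share replicate numbers, but deviations of same-numbered libraries correlated at 0.0710 over 9857 sites and at 0.0175 over the intronic sites, so the libraries were not treated as pairs. A correlation is centred on the mean, so it cannot show a shift shared by all intronic sites. Replicate 1 of each group was the richer in intronic reads, as given above. A replicate block in DESeq2 gave 72 and 13 calls and in edgeR 1 and 0 (284 and 42 at an unadjusted p under 0.05), and 3 sites fell in share. The median log2 fold change stayed above 0 under every alternative run, from 0.22 without KO replicate 1 to 0.84 without WT replicate 1. Scaling by library totals, chosen after seeing the data, shifted all tested sites by -0.12 and gave 89 and 22 calls, and the intronic sites stayed 0.38 above the median of all tested sites. The positive-count size factors, added likewise, gave 88 and 22. Of the 119 up-regulated sites, 23 were still called without KO replicate 1, 15 without KO replicate 2, 81 without WT replicate 1 and 32 without WT replicate 2. For the site in Lrrfip2, the replicate block gave a log2 ratio of 2.35 and a call. A floor of 3 counts was 1.03 to 2.31 ppm of a library, and 1404 of the 1979 sites had at least 10 reads in each library.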

Other observations

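Some intronic sites lay in annotated genes other than the host. The site of 255 bp in Rabgef1 overlapped the pseudogene Ndufa12-ps and had 745 and 646 reads in KO against 302 and 546 in WT, with 96.3% to 99.5% of the reads of Rabgef1 in every library and a log2 ratio of 0.01 ± 0.58 (SE, adjusted p 1.00 by DESeq2). The site in Atrx, a chromatin remodelling gene, overlapped the transcribed pseudogene Gm14853 and had 725 and 250 reads in KO against 148 and 38 in WT and was not called (adjusted p 0.545 by DESeq2). The site in Zmiz1 lay within 300 bp of the start of the lncRNA gene Gm52102 on the other strand, with 498 and 266 reads in KO against 230 and 93 in WT. The site in Gm12300 lay near the start of Myhas, a transcript of the myosin heavy chain locus, with 7 and 19 reads in KO against 32 and 74 in WT, and was not called (adjusted p 0.185 by DESeq2).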
